A study of Macaca mulatta with 60 samples.

Results

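The right ventricle of the fetal rhesus macaque was examined after maternal exposure to bisphenol A (BPA), a component of polycarbonate plastics and epoxy resins that can bind estrogen receptors, during early gestation (EG). The members were the 6 EG right ventricle arrays, chosen by their labels, of 60 arrays in the series. Fetuses 4, 5 and 6 came from dams that ate fruit carrying deuterated BPA in ethanol every day from gestation day 50 to day 100, at 400 µg per kg body weight, and fetuses 1, 2 and 3 came from dams given the ethanol vehicle alone over the same days. All fetuses were female, and EG fetuses were removed by caesarian section. The late gestation (LG) fetuses, 7 to 9 (vehicle) and 10 to 12 (BPA, same dose, from day 100 to term), were collected after vaginal delivery, so window, age and mode of delivery cannot be told apart between EG and LG. Left ventricle (LV), left atrium (LA), right atrium (RA) and biceps femoris muscle (BFM) of the same fetuses made up the other tissues. Each fetus gave 1 array per tissue, and the 12 right ventricle (RV) arrays shared a slide, so the EG comparison lay within 1 slide. Each array gave 1 log2 value for each of 26149 transcripts, which are named by Ensembl identifiers of the first rhesus assembly. The number of arrays limits the precision, and in whole tissue a loss of 1 cell type cannot be told apart from less RNA per cell.

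The right ventricle pumps blood into the pulmonary trunk, and before birth most of that blood bypasses the lungs and reaches the body through the ductus arteriosus. Its walls are made of cardiomyocytes with endothelial cells, fibroblasts, smooth muscle and blood cells. Many of the transcripts called between the EG groups were not messenger RNA but short structural RNA. Y RNAs bind the Ro60 protein and take part in RNA quality control, and U6 RNA sits at the catalytic centre of the spliceosome. 7SK RNA holds back a factor that releases paused RNA polymerase, 5S ribosomal RNA is part of the large ribosomal subunit, and the signal recognition particle (SRP) RNA is the scaffold of the complex that delivers nascent secretory proteins to the membrane. Genes and pseudogenes of these RNAs lie in many near-identical copies in primate genomes, and the array carried few probes for each small RNA, so a value can hold signal from several copies and single copies are uncertain.

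The values of the 6 EG arrays were close to each other. Pairwise correlations across all transcripts lay between 0.967 and 0.983, and array medians between 6.24 and 6.29 on the log2 scale. The median SD within a group, over 12031 tested transcripts with an interquartile range of at least 0.5 across the 12 RV arrays, was 0.33 in EG controls and 0.26 in EG BPA fetuses, against 0.56 and 0.66 in the LG groups. LG fetuses 7 and 12 stood apart, with median correlations to the other RV arrays of 0.902 and 0.848. They entered the EG test only through the filter on variation and the shared estimate of spread. With the same 12031 transcripts but without those 2 arrays in the limma fit, 186 were called in EG (157 higher, 29 lower) instead of 74. The smallest adjusted p was then 0.258.

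Maternal BPA in EG was accompanied by 64 transcripts that were higher and 10 that were lower in RV. A transcript was called, by the criteria in the study's methods, when its log2 fold change (LFC, BPA minus control) reached 1 in either direction with an unadjusted limma p not above 0.01, and 0.615% of the 12031 tested transcripts were called, 0.532% as higher and 0.0831% as lower. None passed a Benjamini-Hochberg adjusted p of 0.05 in limma, where the smallest was 0.9998. All 74 calls are therefore unadjusted calls. An unadjusted limma p of at most 0.05 was reached by 413 transcripts, and one of at most 0.01 by 75. Both counts are lower than these thresholds alone would give on average with no effect. The study described every one of the 74, but only 299 of the other 11957 tested transcripts, so the share of each RNA class among all tested transcripts is unknown here, although by the study's methods gene transcripts made up most of the array and small RNAs the rest.

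The excess of higher transcripts lay in the tail of the distribution and not in its centre. Over the tested transcripts the median LFC was 0.003 and 50.3% were above 0. At an LFC of at least 1 in size, with no p, 296 transcripts were higher and 107 lower, which is 2.77 higher for each lower. At 1.5 in size there were 58 higher and 16 lower, and at 2 there were 13 and 3. The same counts in RV after LG exposure were 183 and 188 at 1 and 31 and 37 at 1.5, with 66 called transcripts (0.549% of tested), 31 higher and 35 lower. One-sided tails occurred in other comparisons too, with 1131 higher and 2098 lower at 1 in LV EG (48 higher and 115 lower calls) and 132 higher and 288 lower in RA LG, there toward lower. The tilt at 1 was present with each EG fetus left out in turn, and it was narrowest without fetus 1 (417 higher, 219 lower) and widest without fetus 5 (392 higher, 136 lower).

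**Figure D1:**
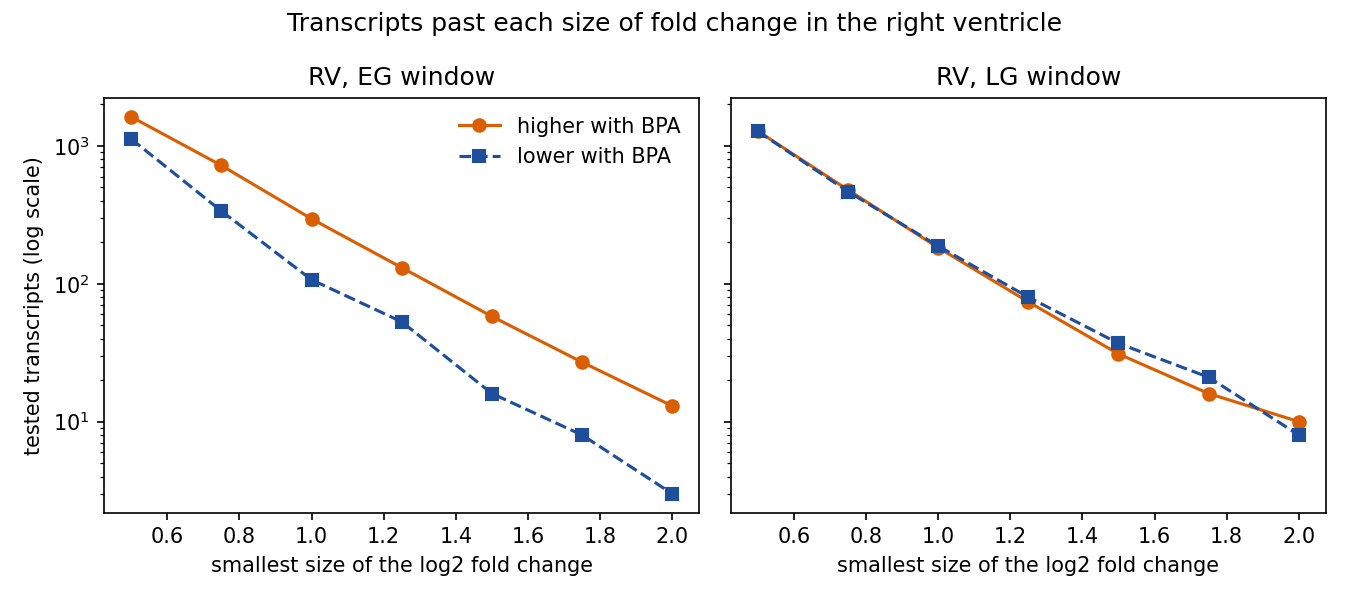
Number of tested transcripts (vertical axis, log scale, of 12031) past each size of LFC (horizontal axis, log2) in RV after EG exposure (left) and LG exposure (right), with circles and solid lines for higher and squares and dashed lines for lower with BPA. In EG the lines lie apart at every size from 0.5 (1627 and 1123) to 2 (13 and 3), and in LG they run together (183 and 188 at 1).

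All 3 BPA fetuses lay above all 3 controls for 1259 tested transcripts (10.5%) and below them for 981 (8.15%). Centring each RV array on its median, which moved the median LFC by 0.02, brought these shares to 9.43% and 9.38%, so this milder tilt depended on the scaling. The tilt in large fold changes was kept under that scaling, with 278 transcripts at or above 1 and 121 at or below -1, and with 58 higher and 14 lower calls. By mean EG level, the calls in 5 equal groups from the lowest to the highest were 2 higher and 3 lower, 18 and 6, 21 and 0, 12 and 1, and 11 and 0. The excess was therefore absent in the lowest group, whose levels ended at 4.94, and present in the 4 groups above it.

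For each EG fetus the tested transcripts that lay at least 1 log2 unit from the median of the other 5 EG fetuses were counted. BPA fetus 4 had 436 such transcripts above and 214 below, fetus 5 had 297 and 221, and fetus 6 had 477 and 172. Control fetus 1 had 246 above and 356 below, fetus 2 had 435 and 424, and fetus 3 had 621 and 555. Every BPA fetus thus had more outlying transcripts above than below, and of the controls fetus 1 had more below, while fetuses 2 and 3 had slightly more above. The other 5 always held more fetuses of the opposite group than of the same group. The difference between the groups therefore enters each count, and the counts are not separate results.

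The 64 higher transcripts had median levels of 6.10, 5.94 and 5.86 in control fetuses 1, 2 and 3 and of 7.56, 7.52 and 7.37 in BPA fetuses 4, 5 and 6. Their LFC ranged from 1.02 to 2.42 with a median of 1.39, which describes the selection. Fetus 3 was the lowest of the 6 for 33 of the 64, fetus 2 for 21 and fetus 1 for 10, and fetus 4 was the highest for 34. The groups did not overlap for any of the 64, and for 9 of the 10 lower transcripts, beside 10.5% and 8.15% of all tested transcripts, as the selection on the same arrays favours. At the edge of the criteria, the unnamed protein coding transcript ENSMMUT00000007850 was inside with an LFC of 1.02 and ENSMMUT00000012143 outside with -0.98, while ENSMMUT00000045450 was outside by its p of 0.01001 with an LFC of 1.16.

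The calls did not rest evenly on the 6 fetuses. Leaving out control fetus 2 gave 43 calls (32 higher), control fetus 3 gave 45 (32 higher), BPA fetus 4 gave 36 (30 higher) and BPA fetus 6 gave 47 (39 higher), while 78 (59 higher) were called without fetus 1 and 59 (52 higher) without fetus 5. Without LG fetus 12 there were 133 calls (113 higher). In each of these fits more transcripts were higher than lower.

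Small and non-coding RNAs made up 51 of the 74 called transcripts, 42 higher and 9 lower, and protein coding transcripts 23, of which 22 were higher. Y RNAs were the largest class of small RNA, with 15 higher and none lower, followed by U6 RNA with 10 higher and 1 lower, 7SK RNA with 4 higher, 5S ribosomal RNA with 3 higher and unnamed small nuclear RNA with 2 higher. MicroRNAs went both ways, with 3 numbered microRNAs and 3 predicted ones without a number higher, and 1 numbered and 4 unnumbered ones lower. Small nucleolar RNAs (snoRNAs), which guide chemical modification of other RNAs, were 1 higher and 2 lower, and SRP RNAs were 1 higher and 1 lower. Unnamed, predicted protein coding transcripts numbered 19, all higher. Small RNAs also made up most of the study's list for LA EG, so their large share of the calls was not particular to RV EG. Of those described for another comparison, 194 of 241 small and non-coding RNAs passed the filter on variation, against 110 of 258 protein coding transcripts.

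The 15 Y RNAs had median levels of 5.91, 6.41 and 5.47 in control fetuses 1 to 3 and of 8.30, 7.95 and 7.86 in BPA fetuses 4 to 6. Their LFC ran from 1.26 to 2.42. Fetus 3 had the lowest level of the 6 for 12 of the 15 and fetus 1 for the other 3, so the spread among controls was shared by the class. The largest rise among the 64 was that of the Y RNA ENSMMUT00000035850, with levels of 5.88, 5.66 and 4.33 in controls and 8.30, 6.95 and 7.86 after BPA. Its LFC was 2.42 ± 0.77 (SE, n = 3 a group, limma p = 0.00694, adjusted p = 0.9998, exact permutation p = 0.1). The call was lost without each of fetuses 2, 3, 4 and 6. An exact permutation p of 0.1 is the smallest that 10 splits of 6 fetuses allow, and every transcript without overlap has it.

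The Y RNA ENSMMUT00000037021 had levels of 5.03, 5.89 and 4.50 in controls and 7.90, 7.59 and 7.08 after BPA. Its LFC was 2.38, with the smallest limma p of the Y RNAs (0.000158). The Y RNA ENSMMUT00000034894 was among the more abundant ones, at 7.34, 7.34 and 5.74 in controls and 9.21, 9.21 and 8.84 after BPA, with an LFC of 2.28 ± 0.46 (SE). Fetus 3 lay below the other controls there, and without it the LFC was 1.75 and still called. ENSMMUT00000034864 (LFC 2.38) also kept its call whichever EG fetus was left out, whereas ENSMMUT00000050277, with 3.55, 4.29 and 3.97 in controls and 5.67, 8.30 and 4.80 after BPA, lost it in 4 of 6 such fits, among them the one without fetus 5, where the LFC was 1.30.

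A rise as large as in the 15 was not seen in other Y RNAs with a description. Another 30 were described by the study because they were called in some other tissue or window, a choice in which the RV EG contrast had no part. Their median levels were 4.75, 4.40 and 4.26 in control fetuses and 4.40, 4.50 and 4.78 in BPA fetuses, and the groups overlap. Their median LFC in RV EG was 0.09, against -0.02 over all 26149 transcripts, with a range of -0.83 to 1.20, and 18 of the 30 were above 0. Over the 23 tested the median was 0.23, against 0.003 over all tested transcripts. Of the 23 tested none was called, beside 0.615% of all tested transcripts, and 3 had all BPA fetuses above all controls and none below, beside 10.5% and 8.15% of all tested transcripts. The medians of these 30 lay in the lowest of the 5 level groups, where no excess was present in any case, so they say little about Y RNAs of higher level, and other Y RNAs on the array could not be looked up.

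**Figure D2:**
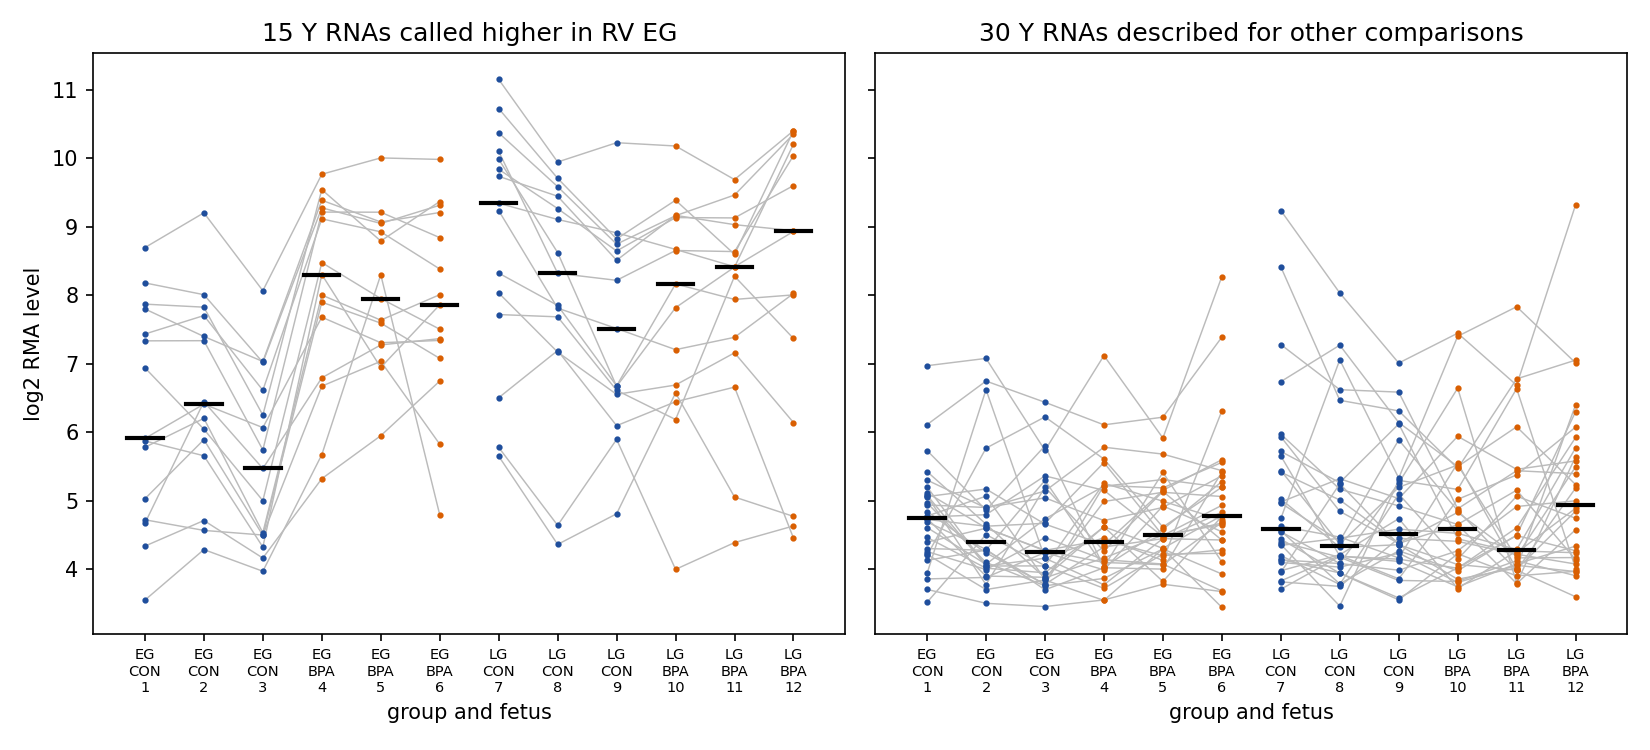
Log2 RMA level (vertical axis) of each of the 15 Y RNAs called higher in RV EG (left) and of 30 Y RNAs described for other comparisons (right) in each of 12 right ventricles (horizontal axis, group and fetus number). Blue points are controls (CON), orange points BPA, grey lines join the values of 1 transcript within a window, and black bars are medians. On the left the medians are 5.47 to 6.41 in EG controls and 7.86 to 8.30 in EG BPA fetuses, and on the right both EG groups lie between 4.26 and 4.78.

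In LG right ventricles the 15 Y RNAs had medians of 9.34, 8.32 and 7.51 in controls and 8.17, 8.41 and 8.93 after BPA. The LG groups overlap, the LG effect was above 0 for 6 of the 15, and its median was -0.18. The EG effect exceeded the LG effect by the call criteria for 7 of the 15 in the limma contrast of the 2 effects. In that contrast 0.515% of tested transcripts (62) passed and none had an adjusted p of at most 0.05 (smallest 0.9995). An unadjusted p of at most 0.05 was reached by 327, fewer than this threshold alone would give on average with no effect. For ENSMMUT00000037021 the difference between the effects was 2.97 ± 0.67 (SE).

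U6 RNA gave 10 higher transcripts with medians of 5.89, 5.02 and 5.90 in controls and 6.86, 7.10 and 6.99 after BPA. The largest change was that of ENSMMUT00000035315, at 3.70, 3.95 and 4.32 in controls and 6.33, 6.78 and 5.79 after BPA, with an LFC of 2.31 ± 0.50 (SE, limma p = 0.000369, exact permutation p = 0.1), called with each EG fetus left out. The more abundant U6 RNA ENSMMUT00000034103 stood at 7.60, 7.63 and 7.45 in controls and 9.07, 8.76 and 8.78 after BPA. Those 6 values left a gap of over 1 log2 unit between the groups. The 1 lower U6 RNA, ENSMMUT00000035869, had 4.26, 5.52 and 6.54 in controls and 3.88, 3.62 and 4.01 after BPA, and lost its call in 5 of 6 fits that left out an EG fetus, all but the one without fetus 1. The 55 U6 RNAs described for another comparison had a median LFC of 0.11, or 0.24 over the 47 tested. Of those 47 none was called, beside 0.615% of all tested transcripts. Among them 6 had all BPA fetuses above all controls and 2 below, beside 10.5% and 8.15%. In each EG fetus the median level of the 55 (4.61 to 5.21) was below that of the 10.

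7SK RNA was represented by 4 higher transcripts, with LFC between 1.38 and 1.78 and median levels of 5.25, 5.60 and 5.34 in controls and 7.28, 7.31 and 6.33 after BPA. Fetus 6 had the lowest of the 3 BPA medians and was the highest of the 6 for none of the 4. The 11 7SK RNAs described elsewhere had a median LFC of 0.14, and none of the 9 tested was called, beside 0.615% of all tested transcripts. The 3 higher 5S ribosomal RNAs had LFC of 1.99 (ENSMMUT00000048496), 1.71 (ENSMMUT00000048813) and 1.61 (ENSMMUT00000050646). The last of these was the most even, at 4.48, 4.45 and 4.36 in controls and 5.93, 6.46 and 5.73 after BPA, and it kept its call whichever EG fetus was left out, whereas ENSMMUT00000048813 kept it in 5 of 6 and ENSMMUT00000048496 in 1. The 18 5S ribosomal RNAs described elsewhere had a median LFC of -0.13, or -0.27 over the 15 tested. Of those 15, 3 had all BPA fetuses below all controls and 1 above, beside 8.15% and 10.5% of all tested transcripts.

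**Figure D3:**
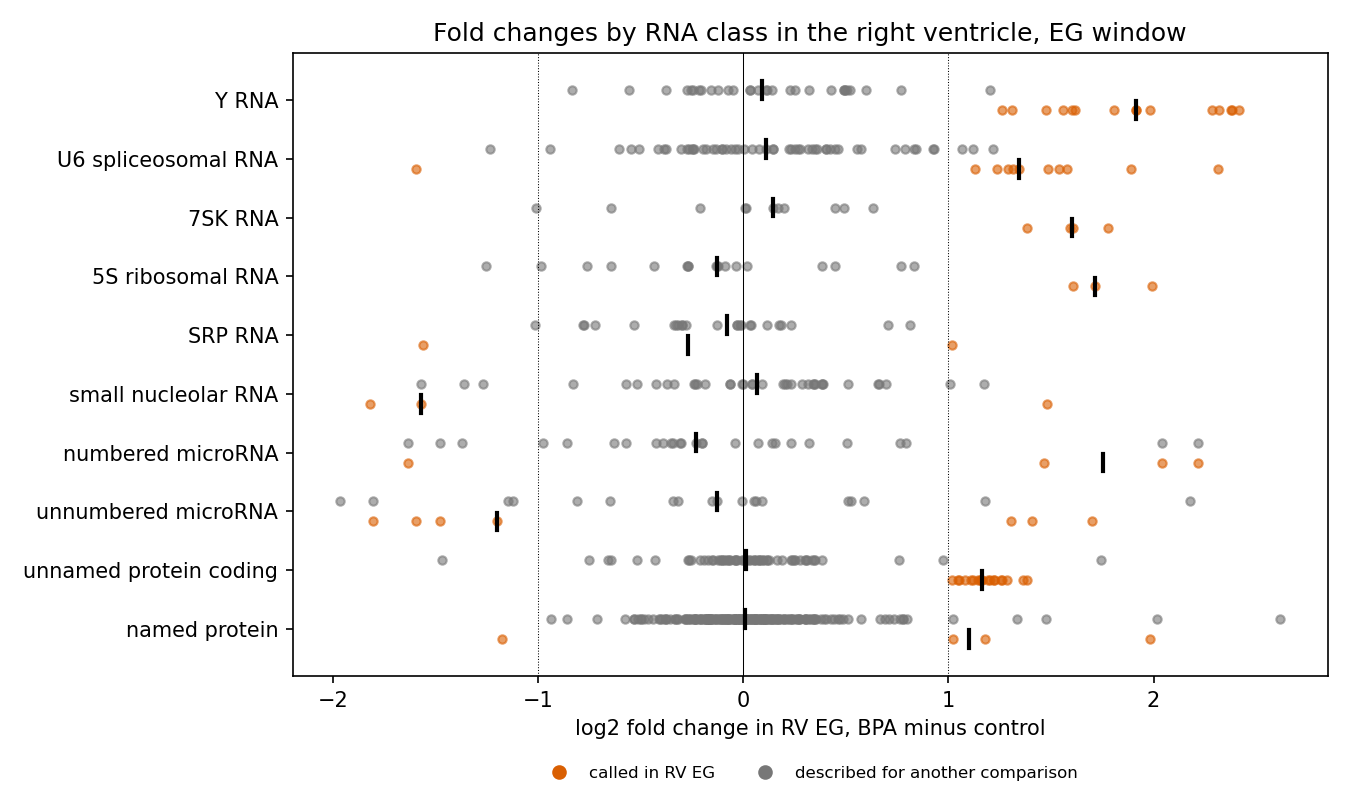
LFC in RV EG (horizontal axis, log2, BPA minus control) of each transcript by RNA class (vertical axis), with the called transcripts in orange, those described for another comparison in grey, black bars at the medians and dotted lines at -1 and 1. Y RNA, U6, 7SK, 5S and unnamed protein coding calls lie beyond 1 with 1 exception, while the grey points of the same classes centre near 0 (medians from -0.13 to 0.14). The grey lists of Y RNA, U6 and unnamed protein coding transcripts had lower median levels than the called ones.

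Taken over all classes, the 241 small and non-coding RNAs described for another comparison had a median LFC of -0.004 in RV EG. Of 194 tested, 2 were called higher and 3 lower, beside 0.532% and 0.0831% of all tested transcripts, and those 5 belong to the 74. At an LFC of 1 in size 10 were higher and 14 lower. The 258 protein coding transcripts described elsewhere had a median LFC of 0.01, and none of the 110 tested was called, beside 0.615% of all tested transcripts. By class, the largest rises and falls in those lists were 0.63 and -1.01 for 7SK, 0.83 and -1.25 for 5S ribosomal RNA, 1.22 and -1.23 for U6, 0.81 and -1.02 for SRP RNA and 1.17 (SNORD78) and -1.57 (SNORA28, called) for snoRNA. Among numbered microRNAs outside the 74, miR-346 had an LFC of 0.79 and miR-612 of -1.48. The U4 RNA ENSMMUT00000050498 had 0.66, the U5 RNA ENSMMUT00000050182 -0.31, a small subunit ribosomal RNA -0.78 and a mitochondrial transfer RNA 0.09. The 2 unnamed small nuclear RNAs, neither of them tested, had -0.03 and -0.17. Transcripts that the study did not describe, none of which was called, held 219 of the 296 rises of at least 1 and 85 of the 107 falls. Their RNA classes are not known here.

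MicroRNAs repress the messenger RNAs they pair with, and 4 numbered ones were called. miR-140, known from cartilage, stood at 5.23, 6.49 and 5.27 in controls and 4.11, 4.34 and 3.64 after BPA. All BPA fetuses lay below all controls, with an LFC of -1.63 ± 0.42 (SE, limma p = 0.00142, exact permutation p = 0.1), and of the 6 fits that left out an EG fetus only the one without fetus 2 lost the call. In LG both groups lay between 3.84 and 4.71, and the EG effect was below the LG effect by -1.77 ± 0.59. In the left atrium of the same EG fetuses miR-140 was called in the other direction, with an LFC of 1.72.

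Each of 2 transcripts described as miR-554 was higher. ENSMMUT00000036920 had 4.20, 3.93 and 4.32 in controls and 6.34, 7.72 and 5.04 after BPA, an LFC of 2.22 ± 0.67 (SE). ENSMMUT00000049665 had 5.08, 4.53 and 5.43 in controls and 7.53, 7.46 and 6.18 after BPA, an LFC of 2.04 ± 0.64. Fetus 6 was the lowest BPA fetus in both, and the calls survived 1 and 2 of the 6 fits that left out an EG fetus. The second of the pair is described as an unnumbered microRNA in another of the study's lists. Their LFC in RV after LG exposure were 1.62 and 1.05, both above 0 as in EG, and neither was called. In the atria of the EG fetuses they parted, with ENSMMUT00000036920 called lower in RA (LFC -2.57) and ENSMMUT00000049665 called higher in LA (LFC 2.59). miR-644 was higher as well, at 5.67, 4.50 and 5.10 in controls and 6.33, 6.38 and 6.96 after BPA, with an LFC of 1.47, and was still called in 1 of the 6 fits.

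The snoRNA SNORD52, of the family that guides methylation of ribosomal RNA, had 9.49, 7.66 and 7.67 in controls and 6.32, 6.56 and 6.48 after BPA. The LFC was -1.82 ± 0.58 (SE), the largest fall among the calls, and fetus 1 lay far above the other controls. Without fetus 1 the LFC was -1.21 and no longer called, and the call was also lost without each of the BPA fetuses. The transcript had LFC of -1.73 in LV, -1.37 in LA, -1.18 in RA and -1.99 in BFM of the same EG fetuses, of which the BFM one was called, and fetus 1 was the highest EG control in each of the 5 tissues. SNORA28, of the family that guides pseudouridylation, had 6.93, 5.24 and 6.62 in controls and 4.61, 4.34 and 5.14 after BPA (LFC -1.57), and lost its call in 4 of the 6 fits that left out an EG fetus. SNORA70 of the same family was higher, with 5.65, 5.02 and 6.19 against 7.17, 6.99 and 7.14 (LFC 1.48), and kept its call in 5 of the 6. Changes of snoRNAs therefore had no common direction. The SRP RNAs also moved in opposite directions, ENSMMUT00000051035 with an LFC of -1.56 and ENSMMUT00000050328 with 1.02, and the first kept its call in 4 and the second in 0 of the 6 fits.

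Of the 4 unnumbered microRNAs that were lower, ENSMMUT00000050386 fell most, from 5.20, 5.68 and 6.53 to 4.07, 4.03 and 3.90. ENSMMUT00000050708, with 6.79, 4.85 and 5.94 in controls and 3.99, 3.78 and 5.02 after BPA, was the 1 called transcript of the 74 whose groups overlap (exact permutation p = 0.2). ENSMMUT00000049348 and ENSMMUT00000049642 had LFC of -1.48 and -1.20. Of the 6 fits that left out an EG fetus, ENSMMUT00000050386 kept its call in 5, ENSMMUT00000050708 in 2, ENSMMUT00000049348 in 3 and ENSMMUT00000049642 in 1. The BPA levels of ENSMMUT00000050386 lay close to the lowest percentile of the EG arrays (3.72 to 3.75), where differences may be poorly resolved. Values of miR-140 (3.64 in fetus 6), the U6 RNAs ENSMMUT00000035869 (3.62 in fetus 5) and ENSMMUT00000035315 (3.70 in fetus 1), and the Y RNA ENSMMUT00000050277 (3.55 in fetus 1) lay below it, so the sizes of their LFC are uncertain as well.

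Among the 4 called transcripts of named proteins, BMP10 had the largest LFC. Bone morphogenetic protein 10 is a growth factor made by cardiomyocytes, in the trabeculae of the embryonic ventricle and later mainly in the right atrium. Its transcript ENSMMUT00000021101 had levels of 4.41, 4.41 and 4.18 in controls, 4.33 ± 0.13 (SD, n = 3), and of 7.96, 6.02 and 4.96 after BPA, 6.31 ± 1.52. The LFC was 1.98 ± 0.57 (SE, limma p = 0.0036, adjusted p = 0.9998, exact permutation p = 0.1). The 3 BPA fetuses differed widely from each other, and without fetus 4 the LFC was 1.16 and no longer called, as it was not without fetus 3. All 6 LG right ventricles, control and BPA, lay between 3.97 and 4.93, and the EG effect exceeded the LG effect by 2.21 ± 0.81 (SE) but did not meet the criteria.

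Myosin-6 (Myh6, ENSMMUT00000020702), the alpha myosin heavy chain of cardiomyocytes that is most abundant in the atria, varied far more than any difference between groups. Controls had 5.51, 6.77 and 11.91 and BPA fetuses 12.77, 7.43 and 11.85, and the groups overlap. The LFC was 2.62 ± 2.16 (SE, limma p = 0.245, exact permutation p = 0.3). Fetus 4 was the highest for both Myh6 and BMP10, but fetus 3, the highest control for Myh6, was the lowest control for BMP10. LG right ventricles spanned 6.47 to 14.23 for Myh6. KCNA5 (ENSMMUT00000032215), an atrial potassium channel looked up after the other values were seen, had 5.08, 5.08 and 5.18 in controls and 6.15, 4.73 and 5.05 after BPA, with fetus 4 again the highest and overlapping groups (LFC 0.20). Markers that define ventricular muscle, such as the beta myosin heavy chain, could not be looked up by name, so the label of the tissue was not checked against them. Whether the RV samples held different amounts of neighbouring atrial tissue was not tested.

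Tubulin beta-3, a tubulin best known from neurons, had 6.15, 5.79 and 5.60 in controls and 7.30, 6.36 and 7.42 after BPA (LFC 1.18 ± 0.38), and lost its call without each of fetuses 2, 3, 4 and 6. RPL9, a protein of the large ribosomal subunit, had 8.54, 8.27 and 8.62 in controls and 9.57, 9.33 and 9.60 after BPA, with an LFC of 1.02 ± 0.34. Its groups were tight, with SDs of 0.18 in controls and 0.15 after BPA, but the call was lost in all 6 fits that left out an EG fetus, in which the LFC was 0.92 to 1.11. MutS homolog 5, a protein of meiotic recombination, was the 1 protein coding transcript that fell, from 5.71, 5.76 and 6.10 to 4.72, 4.43 and 4.88 (LFC -1.18 ± 0.34), and lost its call in 3 of the 6 fits.

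**Figure D4:**
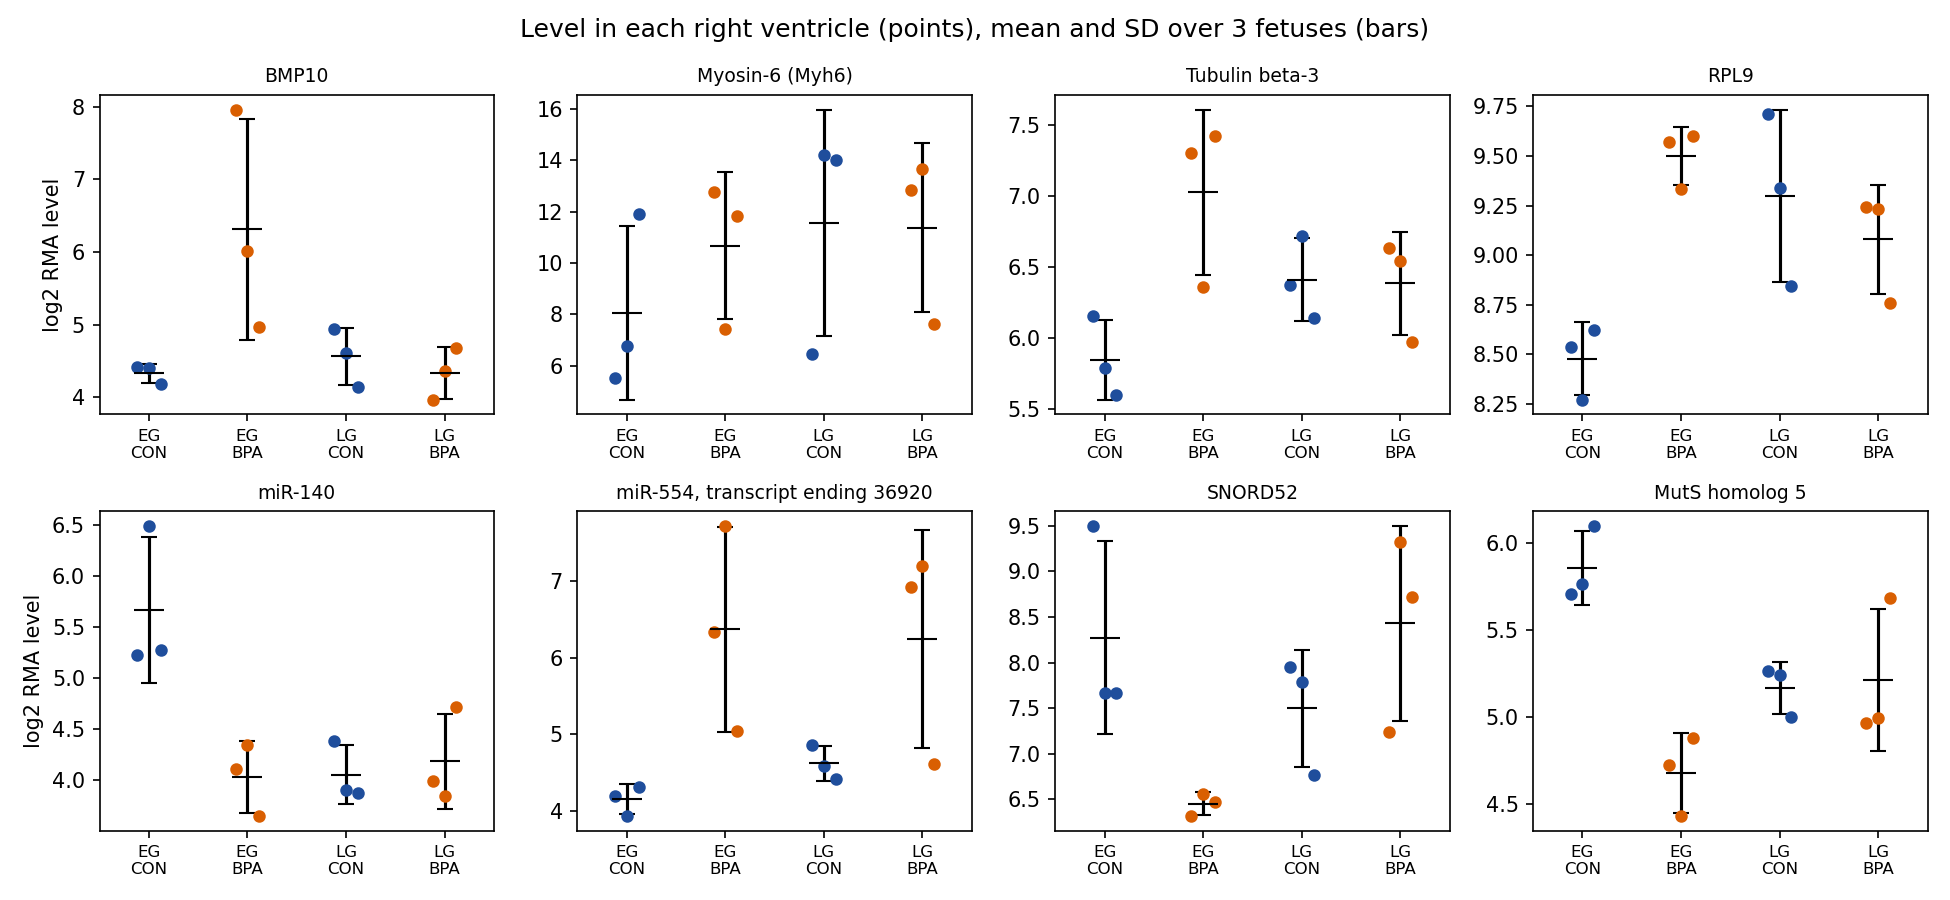
Log2 RMA level (vertical axes, which differ between panels and do not start at 0) of 8 transcripts in right ventricles by group (horizontal axes, CON control), with 1 point per fetus, blue for controls and orange for BPA, and bars for the mean and SD over 3 fetuses. BMP10 reached 7.96 in 1 EG BPA fetus and stayed below 5 in all LG fetuses, Myh6 spanned 5.51 to 12.77 across EG fetuses with overlapping groups, and RPL9 differed by 1.02 with little spread.

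The 19 unnamed protein coding transcripts were higher by 1.02 to 1.38. Their median levels were 6.37, 6.26 and 6.00 in controls and 7.59, 7.58 and 7.43 after BPA, and the 3 BPA fetuses stood close together. They reached some of the highest levels among the 64, such as 10.83, 10.35 and 10.44 in controls and 11.75, 11.61 and 11.42 after BPA for ENSMMUT00000041362. The EG effect exceeded the LG effect by the criteria for 4 of them, beside 0.515% of all tested transcripts, and the RV effect exceeded the LV effect for 10, beside 0.993%, but all 19 were chosen on the RV EG effect that enters both differences. The 62 unnamed protein coding transcripts described for another comparison had a median LFC of 0.01, or 0.09 over the 23 tested, of which none was called, beside the same 0.615%. Their median levels, 4.52 to 4.74 in the EG fetuses, lay in the lowest level group, so they say little about such transcripts of higher level.

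Of the other genes that the study followed across tissues, none was called in RV EG, beside 0.615% of all tested transcripts. ADAM12, a membrane metalloprotease, had 7.33, 7.76 and 7.08 in controls and 7.18, 7.17 and 7.48 after BPA (LFC -0.11 ± 0.36). The LFC of Thrb, a thyroid hormone receptor, was -0.44 ± 0.66, that of Gyg1, which primes glycogen synthesis, was -0.18 ± 0.57, and that of Pdk4, which restrains pyruvate oxidation, was 0.19 ± 0.79. The standard errors exceeded each of these differences. miR-205 and miR-224 failed the filter on variation, with LFC of -0.04 and 0.16 on levels near 4.

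No marker of other cell types was called, beside 0.615% of all tested transcripts. Of 6 leukocyte markers (CAMPATH-1 antigen, cathepsin S, LCP2, the Fc gamma receptor IIb, the G-CSF receptor and the common beta chain of cytokine receptors), 5 were tested and none was called, with LFC from -0.24 to 0.23 and a summed level, on the log2 scale, of 9.18 to 9.75 in controls and 8.91 to 10.26 in BPA fetuses. The 2 erythroid markers, ALAS2 and KLF1, of which KLF1 failed the filter on variation and was not tested, had LFC of 0.08 and -0.28, and their summed level was 8.74 to 9.16 in controls and 8.02 to 10.51 after BPA, with fetus 4 the highest. Of the 5 fibroblast and matrix markers (CTGF, EFEMP1, HTRA3, PDGFC and WISP2) 4 were tested and none was called, with LFC from -0.46 to 0.48 and summed levels of 10.49 to 11.38 in controls and 10.41 to 11.40 after BPA. The groups of 1 of them, EFEMP1, did not overlap, at 8.74, 8.23 and 8.18 in controls and 8.17, 7.54 and 8.04 after BPA (LFC -0.46). Beside it, 8.15% of all tested transcripts had all BPA fetuses below all controls. The smooth muscle marker Myosin-11 had 6.82, 8.07 and 7.29 in controls and 7.08, 6.42 and 6.11 after BPA (LFC -0.86, exact permutation p = 0.2), and the groups overlap. The 7 olfactory receptors, which are not expected in heart and of which 1 was tested, had LFC from -0.41 to 0.28 on levels between 3.80 and 5.16. For 1 of the 7 all BPA fetuses lay below all controls, beside the same 8.15%.

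The rise of the 64 transcripts was not carried into the other tissues of the same fetuses. Their median LFC was -0.10 in LV, -0.24 in LA, -0.07 in RA and 0.01 in BFM after EG exposure, beside medians over all transcripts of 0.05, -0.01, -0.01 and 0.01. In LV 26 of the 64 were above 0, 48 were tested and none was called (0.925% of tested transcripts were called there). In LA 1 of 36 tested was called higher (0.582%), in RA 1 of 54 was called lower (0.439%), and in BFM 1 of 36 was called lower (0.267%). In RV after LG exposure 29 of the 64 were above 0, with a median of -0.06 and no call (0.549% of tested). After LG exposure in the other heart tissues none was called either (0.84% of tested transcripts in LV, 1.09% in LA and 0.439% in RA), and the median LFC was 0.40 in LV, where 50 of the 64 were above 0, -0.20 in LA, where 13 were, and -0.58 in RA, where 7 were, beside medians over all transcripts of 0.02, -0.008 and 0.02. The 10 lower transcripts had a median LFC of -1.21 in LV EG, where 8 of 10 were below 0 and none was called.

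**Figure D5:**
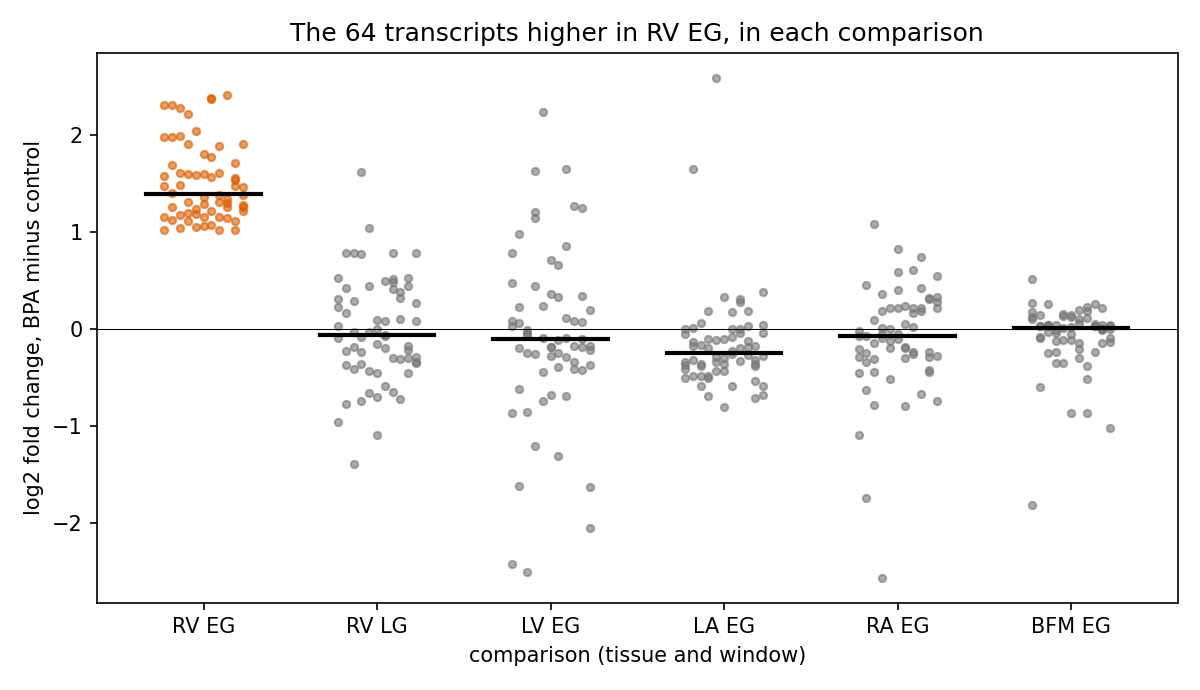
LFC (vertical axis, log2, BPA minus control) of the 64 transcripts called higher in RV EG in that comparison, which chose them (orange), and in RV LG and the EG comparisons of LV, LA, RA and BFM (grey), with black bars at the medians (horizontal axis, tissue and window). The medians outside RV EG lie between -0.24 and 0.01.

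The difference between ventricles was tested directly in a limma fit of the 24 RV and LV arrays. The RV EG effect differed from the LV EG effect by the call criteria for 203 of 20438 tested transcripts (0.993%), with a smallest adjusted p of 0.0575. An unadjusted p of at most 0.05 was reached by 1070, close to what this threshold alone would give on average with no effect. Of the 64 transcripts, 21 passed as higher in RV than in LV, with a median difference of 1.47, and none of the 10 lower ones passed. When RV minus LV differences were taken within each fetus, 15 of the 64 passed. In the fit without this pairing, the count was 13, 17, 5, 20, 7 and 5 without EG fetuses 1, 2, 3, 4, 5 and 6 in turn. Against LG exposure within RV, 18 of the 64 and 2 of the 10 passed, beside 0.515% of all tested transcripts, with a median difference of 1.44 over the 64. Because the members were chosen on the RV EG effect, these differences were bound to lean in its direction.

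In the LG right ventricles the 64 transcripts had fetus medians of 6.82 to 7.83, closer to the EG BPA fetuses (7.37 to 7.56) than to the EG controls (5.86 to 6.10). The EG control mean was below both LG group means for 60 of the 64, beside 47.4% of all tested transcripts, while the EG BPA mean lay inside the range of the 6 LG values for 51, beside 66.9%. The median difference of LG controls was 1.18 from EG controls and -0.10 from EG BPA fetuses. The EG controls that chose the members are the same arrays in both statements, so low controls were favoured by the selection, and age and delivery differ between the windows.

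The Y RNAs and the unnamed protein coding transcripts among the 64 also varied together in tissues whose arrays did not choose them. After group means were removed, the median pairwise correlation among the 15 Y RNAs was 0.65 across the 12 LV arrays, 0.56 in LA, 0.69 in RA and 0.68 in BFM, and 0.50 across the 6 LG arrays of RV, which entered the calls through the filter and the shared spread. Over all 12031 tested transcripts the same medians lay between -0.003 and 0.02, and among the 30 other Y RNAs between 0.01 and 0.16. Those 30 had lower levels, with medians of 4.26 to 4.78 in RV of the EG fetuses, against 5.47 to 8.30 for the 15. How far level alone sets the correlations apart was not tested. The 19 unnamed protein coding transcripts had medians of 0.60 in LV, 0.62 in LA, 0.81 in RA and 0.80 in BFM, and 0.36 across the LG arrays of RV. Without the 2 arrays of each tissue on which the list lay farthest from its median, the Y RNA values were 0.65, 0.32, 0.41 and 0.50 and those of the unnamed transcripts 0.68, 0.42, 0.60 and 0.68. Across the 10 higher U6 RNAs the medians were weaker, at 0.16 in the LG arrays of RV and 0.18 to 0.29 in the other tissues, and without the 2 farthest arrays they were 0.16 in LV, 0.07 in LA, 0.02 in RA and 0.14 in BFM. Across the 10 lower transcripts they were -0.11 in the LG arrays of RV and between -0.08 and 0.05 in the other tissues. The pairs of a list share arrays, RNA extracts and, for copies of 1 RNA, sequence, and the parts of these in the correlations were not tested.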

How the data were processed

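Right ventricular cDNA was primed with oligo(dT) and random primers, was not amplified, and was hybridised in 1 colour to custom NimbleGen arrays. The deposited values are on a log2 scale. Per the labels and the methods, the authors made them by RMA (robust multi-array averaging), run on 1 tissue at a time, with background correction, quantile normalization and a median polish of a few probes to 1 value per transcript. Levels were therefore compared within RV alone, and only effects were set against each other between tissues. RMA makes arrays alike in distribution, so a shift shared by all transcripts could not be seen. Transcripts were named from the descriptions in the study's own lists of called transcripts, and Thrb, Gyg1 and Pdk4 from its list of PCR assays, of which no value was used. No other table that pairs these identifiers with symbols or sequences was used here, and so no sequence is shown.

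Transcripts with an interquartile range under 0.5 over the 12 RV arrays were removed. The 4 group means were fitted with limma 3.58.1 in R 4.3.3, and a transcript was called when its LFC reached 1 in either direction with an unadjusted p not above 0.01, with Benjamini-Hochberg adjusted p-values beside it. The fit was tested on simulated data with 200 shifted transcripts. Exact two-sided permutation tests had 10 splits. The difference between EG and LG effects was tested in the same fit, and that between RV and LV in a fit of 24 arrays without a block. Deviations from group means of the same fetus in RV and LV correlated with a median r of 0.10 (EG fetuses 0.06 to 0.13), against -0.01 between different fetuses, and since both samples come from 1 animal, within-fetus differences were fitted too.

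The text names the 10 largest rises and all falls among calls, every called transcript with a known name, the genes the study followed, the largest rise and fall per RNA class described for other comparisons, and the markers. The transcripts, lists and tests were chosen with earlier results of these data known. Alternatives were other filters, normalizations, variance priors, array weights (statmod 1.5.0), thresholds, and each fetus left out. Fits without LG fetuses 7 and 12, and with the filter over EG arrays only, were added after seeing the data. Figures were drawn in Python 3.11.15 with matplotlib 3.10.9.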

Additional observations from a re-analysis of the deposited data

Results flagged for a closer look

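Of 77 named transcripts, 19 had an EG effect in RV that differed from the LG effect in RV or from the EG effect in LV at a difference of at least 1 in size and a limma p of at most 0.01, and none did at an adjusted p of 0.05. Against the LG effect 9 of 63 tested passed, beside 0.515% of all tested transcripts, and against LV 13 of 76, beside 0.993%, but nearly all had been named for a large effect that enters these differences. Against the LG effect, the difference (log2) was 2.97 for the Y RNA ENSMMUT00000037021, 2.44 for ENSMMUT00000034864 and 2.47 for ENSMMUT00000034894. It was 3.39 for the 5S ribosomal RNA ENSMMUT00000048496, -2.75 for SNORD52 and -1.77 for miR-140. Those 6 had been chosen by the RV EG effect. Chosen by a call in RV after LG exposure, which enters the difference with opposite sign, were 3 more that were not called in RV EG, with -2.79 for the 7SK RNA ENSMMUT00000050311, -3.41 for the U6 RNA ENSMMUT00000037347 and -2.02 for EFEMP1 (ENSMMUT00000023702).

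Against the LV effect in the same fetuses, the difference was 2.76 for ENSMMUT00000034864, 2.29 for ENSMMUT00000034894, 4.50 for ENSMMUT00000048496 and 3.09 for miR-644. It was 3.18 for the 7SK RNA ENSMMUT00000049889, -3.70 for the unnumbered microRNA ENSMMUT00000049861, 3.85 and 4.66 for the SRP RNAs ENSMMUT00000050336 and ENSMMUT00000049939, and 6.77 for the U6 RNA ENSMMUT00000036475. None of these 5 was called in RV EG. The 4 other than ENSMMUT00000049861 were described because of a call in LV EG itself (LFC -2.55, -3.04, -5.68 and -5.56 in LV for ENSMMUT00000049889, ENSMMUT00000050336, ENSMMUT00000049939 and ENSMMUT00000036475), so their differences largely restate that call. Of the olfactory receptors, which are not expected in heart, 4 passed as well, with -2.12 for 9Q2, 2.58 for ENSMMUT00000020584, -2.49 for 8B4 and 2.35 for 8B12, on RV levels of at most 5.16. All 4 were chosen by a call in LV EG as well, and their LFC in RV ran from -0.24 to 0.18.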

How the results depend on the processing

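Of 401 values of 18 results under 34 alternatives, 329 stayed within their spread or within 1.5 times the count, and no called transcript that is named changed sign. Many of the 329 could not have moved. Filters, variance priors and the omission of LG fetuses leave the class medians as they were. The priors and LG omissions also leave the shares without overlap and the median LFC as they were. The tally therefore overstates how stable the results are. For the 74 calls (64 higher, 10 lower), an adjusted p of 0.05 left 0, 0 and 0, an interquartile range of at least 1 gave 21 (19 and 2), only the 6 EG arrays 201 (164 and 37), array weights 292 (216 and 76), a p of 0.05 257 (199 and 58), and removal of LG fetuses 7 and 12 186 (157 and 29). The iteration for array weights stopped before it converged, and there 95 transcripts had an adjusted p of at most 0.05. Lower calls were 16 with no filter and 6 without the transcripts of lowest mean level (up to the 25th percentile). With 1 fetus left out, calls ranged from 36 to 133, higher calls from 30 to 113, lower calls from 6 to 20 and the share of higher calls from 71.1% to 88.9%. That share was judged by the rule of 1.5 times as well, which is wide for a percentage.

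The shares of transcripts without overlap, 10.5% higher and 8.15% lower, were 9.10% and 8.68% with no filter, 9.43% and 9.38% after median centring, and 17.2% and 7.43% with the filter over EG arrays. The lower share was 6.40% at an interquartile range of 1, and the higher share 11.1% without the lowest levels. With a fetus left out they ranged from 10.5% to 17.2% and from 8.15% to 15.4%, since fewer fetuses overlap less often. The median LFC was -0.0239 with no filter, -0.0215 after median centring, 0.0567 at an interquartile range of 1 and 0.0952 with the filter over EG arrays. Class lists from LG comparisons moved the medians of other spliceosomal RNA, 0.10 in the full list, to 0.51 and of numbered microRNA, -0.23 in the full list, to -0.12. With a fetus left out, the median of 7SK RNA ran from -0.19 (without fetus 4) to 0.35 and that of U6 RNA from -0.0786 (without fetus 6) to 0.132.

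The 62 calls of EG against LG effects became 129 with no filter, 21 at an interquartile range of 1, 174 with array weights, 117 without LG fetuses 7 and 12, and 35 to 115 with 1 fetus left out (35 without fetus 4, and 110, 115 and 107 without LG fetuses 9, 11 and 12). For RV against LV, the replicate block within fetuses gave 193 calls instead of 203, of which 144 were shared, variation in both ventricles 88, and leaving out an EG fetus 125 to 268 (125 without fetus 5 and without fetus 6). What moved these counts was not tested, beyond the fewer transcripts or fetuses that a filter or an omission leaves. Background intensity was not used here, so levels near 4 may be at background.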

Other observations

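Among transcripts described for another comparison, 2 unnumbered microRNAs had larger fold changes in RV EG than most called ones but missed the threshold on p. ENSMMUT00000049389 had levels of 6.15, 6.74 and 6.40 in controls and 8.22, 9.02 and 8.57 after BPA, an LFC of 2.18 (limma p = 0.033, exact permutation p = 0.1), whereas it was called lower in LA (LFC -2.81) and BFM (LFC -1.40) of the same fetuses. ENSMMUT00000049861 had 5.98, 6.82 and 7.88 in controls and 4.47, 4.61 and 5.68 after BPA, an LFC of -1.97 (limma p = 0.021, exact permutation p = 0.1). In both the EG groups did not overlap. The shared spread of the fit includes the LG arrays, whose median SD was higher than that of the EG arrays.

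Chosen after its values were seen, the transcript ENSMMUT00000003381, described as a protein of the interferon-inducible IFI27 family, stood at 5.16, 5.79 and 4.63 in RV EG controls and at 6.89, 6.85 and 7.89 after BPA. Its LFC of 2.02 missed the threshold on p (limma p = 0.0123, exact permutation p = 0.1), and the groups did not overlap. In the other tissues of the same EG fetuses it was called higher, with LFC of 2.45 in LV, 2.60 in LA, 2.36 in RA and 1.39 in BFM, and in LG right ventricles the groups overlapped, at 8.81, 6.37 and 5.51 in controls and 5.37, 5.65 and 7.09 after BPA, with control fetus 7 the highest. The study described it because of its calls in LV, LA and RA.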
